A study of Mus musculus with 4 samples.

Results

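Macrophages lacking the long non-coding RNA lncLy6c (LNCKO) were compared with wild-type (WT) macrophages, both under butyrate. The comparison used 2 of the 4 RNA libraries of the series, 1 on each side. It covered the 6612 autosomal genes whose mean over the 4 libraries was at least 1 FPKM, out of 16375 genes listed. FPKM here means fragments per kilobase of the whole gene span, introns included, per 1000000 fragments of the library. These values were therefore compared between libraries and not between genes. The difference of a gene was log2 of FPKM + 1 in the LNCKO library minus the same in the WT library, so that a positive value means a higher level in LNCKO. A gene was counted as higher or lower when this difference reached 2-fold. The added 1 shrinks the differences of genes at low FPKM. The plain ratio of their values can therefore pass 2-fold without the gene being counted. Pairs of values are given with WT before LNCKO. With 1 library per group, no difference in what follows has a replicate check, and no difference was put to a test.

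Both kinds of macrophages were grown from bone marrow cells with M-CSF, so all 4 groups hold cultured bone marrow-derived macrophages and no macrophages taken from the gut. WT cells came from C57BL/6 mice, which the methods describe as 4 to 6 weeks old and male or female. LNCKO cells came from mice on the C57BL/6J background, of an age not given, in which CRISPR-Cas9 had cut upstream of exon 1 and downstream of exon 2 of the lncLy6c gene. The deletion is carried by every cell of the animal. Cells of the WT butyrate and LNCKO butyrate groups received 500 µM butyrate for 24 h, and the WT control and LNCKO control groups received none. How many mice gave cells to a library was not stated.

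The labels were checked as far as the values allow. The targeted RNA could not be looked up, since no entry of the table carries the name lncLy6c, and the names of both LNCKO libraries do not spell out a genotype. Every statement on LNCKO rests on the sample titles. The library totals were 59195293 fragments for WT butyrate and 65521713 for LNCKO butyrate, against 56392028 for WT control and 53363944 for LNCKO control. All 12 markers of macrophage identity were detected in all 4 libraries. Cd68, a lysosomal protein of macrophages, was at 340 FPKM in WT butyrate and 330 in LNCKO butyrate. Csf1r, the receptor of M-CSF, was at 46.5 and 38.3 FPKM. The genotypes also differed in genes of the Y chromosome. Eif2s3y had 23 fragments in WT butyrate and 7117 in LNCKO butyrate, Kdm5d had 33 and 2882, and Uty had 27 and 2419. Genotype and the sex of the animals cannot be told apart in these libraries. The 191 X-linked genes with a mean of at least 1 FPKM had a median difference of 0.07, and 0 of them reached 2-fold.

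Butyrate is a short-chain fatty acid made by gut bacteria that inhibits histone deacetylases and is sensed by several G protein-coupled receptors. Monocytes that enter the gut wall mature there into resident macrophages, and RUNX3, a transcription factor of the Runt family, is known in blood cells for its part in lymphocyte and myeloid differentiation. LncLy6c is named for the Ly6c genes, which encode surface proteins of inflammatory monocytes. Bone marrow grown with M-CSF gives mostly macrophages, and early in culture also holds granulocyte precursors and other marrow cells.

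Under butyrate, 13 of the 6612 genes (0.197%) were at least 2-fold higher in LNCKO and 17 (0.257%) were at least 2-fold lower. Without butyrate, 10 genes (0.151%) were higher and 5 (0.0756%) were lower. The genes higher in LNCKO under butyrate included the 4 adult hemoglobin genes, Arg1, Rag1, Ifi208, Cd5l, Mcpt8, Gdf15 and Hmox1. The genes lower in LNCKO included both lysozyme genes, the neutrophil genes Mmp8, Ly6g and Chil1, the chemokine gene Ccl5, Fn1, Selenom and Runx3. Most genes lay close to 0. The median difference was 0.04, and 5460 genes (82.6%) were within 0.2 of 0. Without butyrate, 6150 genes (93.0%) were within 0.2 of 0 and the median was 0.01. The spread across genes was wider under butyrate, with an SD of 0.209 against 0.138 without it.

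The pair without butyrate shares no library with the pair under butyrate, although both share genotype, sex and handling. Of the 13 genes higher under butyrate, 7 (53.8%) were also at least 2-fold higher without it, which is 70.0% of the genes higher there. These 7 were the 4 hemoglobin genes, Ifi208, Cd5l and ENSMUSG00000110104. Of the 17 genes lower under butyrate, 1, Runx3, was also lower without it (5.88% of the 17, and 1 of the 5 lower there). Across the 6612 genes, Pearson r between the differences with and without butyrate was 0.36, and Spearman rho was 0.13. These are descriptions across genes, which are not independent replicates. Without the 4 hemoglobin genes and the genes that overlap another, r was 0.26 over 6313 genes.

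**Figure D1:**
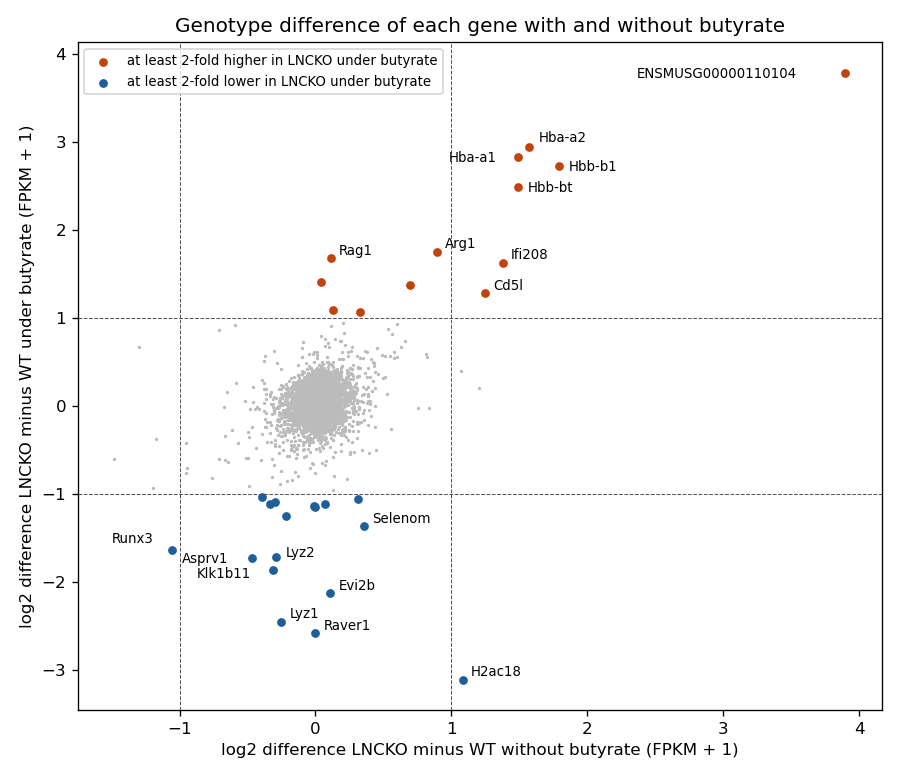
Each point is 1 of the 6612 genes, with the log2 difference LNCKO minus WT (FPKM + 1) without butyrate on the x axis and under butyrate on the y axis. Dashed lines mark 2-fold. The 7 orange points at the upper right are past 2-fold in both pairs, and most blue points sit near 0 on the x axis, apart from Runx3 (-1.06) to the left and H2ac18 (1.08) to the right.

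The order of the 4 libraries differed between the higher and the lower genes. The 30 genes were picked by the values of the 2 butyrate libraries. This choice favours these 2 as the highest, lowest or farthest library, which does not hold for the shares over all genes. In all 17 lower genes, WT butyrate had the highest value of the 4 libraries. In 8 of the 17, LNCKO butyrate had the lowest value. Among the 13 higher genes, LNCKO butyrate had the highest value in 10, and both LNCKO libraries were above both WT libraries in 12. Over all 6612 genes, WT butyrate was the highest library in 1401 (21.2%) and the lowest in 3265 (49.4%). WT butyrate was also the library farthest from the median of the other 3 in 3214 genes (48.6%), against 1046 (15.8%) for LNCKO butyrate. Among the 30 genes past 2-fold it was farthest in 19, namely 15 of the 17 lower and 4 of the 13 higher genes.

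**Figure D2:**
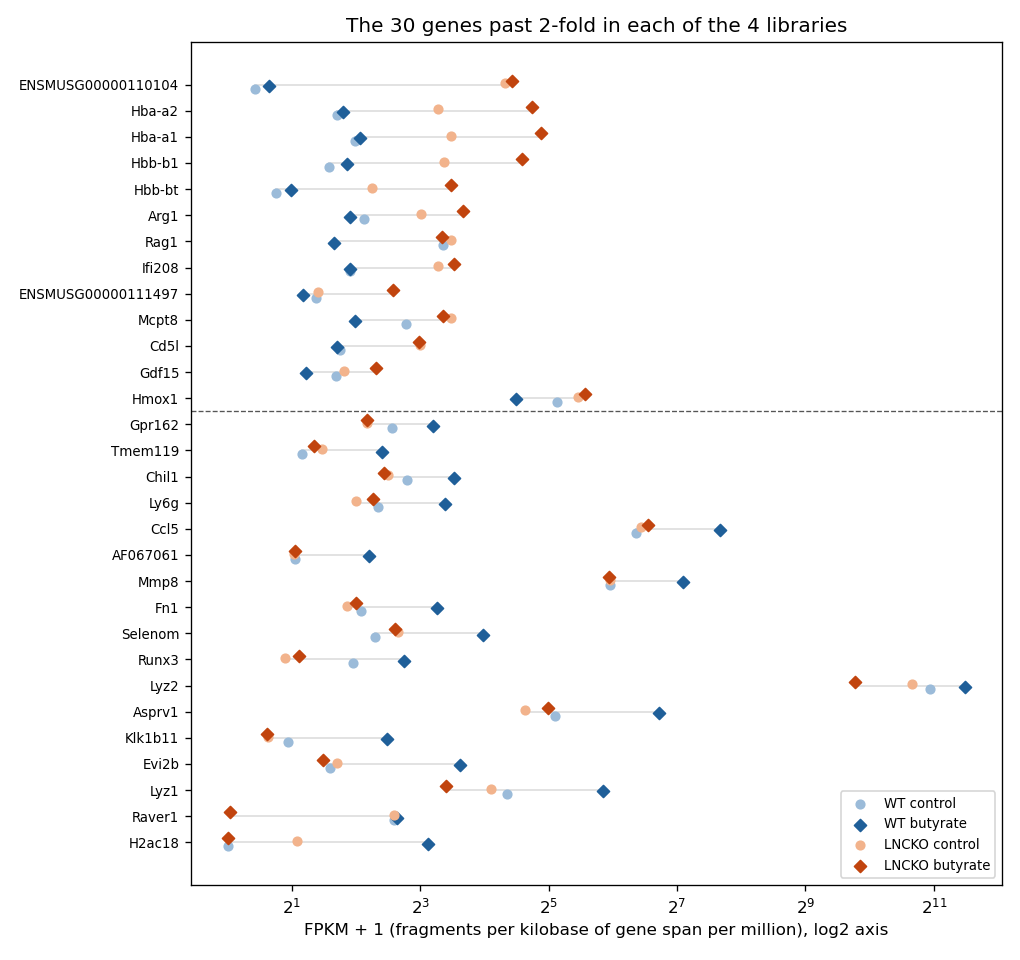
FPKM + 1 of the 30 genes past 2-fold, 1 row per gene, on a log2 axis, with 1 point per library. Genes above the dashed line were higher in LNCKO under butyrate and genes below it were lower. In the lower genes, which were picked for a higher value in WT butyrate than in LNCKO butyrate, the dark blue diamond of WT butyrate stands to the right of the other 3 libraries.

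After ENSMUSG00000110104, which overlaps other genes, the adult hemoglobin genes had the largest positive differences. Hba-a1 and Hba-a2 encode the alpha chain, and Hbb-b1 and Hbb-bt the beta chain. They are made in erythroid precursors, and low levels have been found in other cells. Hba-a1 was at 3.15 FPKM in WT butyrate and 28.6 in LNCKO butyrate, against 2.97 and 10.2 in the matching controls. Hba-a2 was at 2.48 and 25.8, against 2.25 and 8.68 in the controls. Hbb-b1 was at 2.63 and 23.1 FPKM, against 2.00 and 9.36 in the controls, and Hbb-bt at 0.986 and 10.2, against 0.686 and 3.73 in the controls. In all 4 genes both LNCKO libraries were above both WT libraries, and LNCKO butyrate was the highest. The log2 differences under butyrate were 2.83, 2.94, 2.73 and 2.49, and those without butyrate 1.49, 1.57, 1.79 and 1.49. As fragments of the library total, Hba-a1 was 9.08-fold higher in LNCKO butyrate, with a 95% interval of 7.78 to 10.6. This interval is exact (Clopper-Pearson) and, like all those given here, covers counting error only.

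The copies of each pair are nearly identical, and how the authors' counting treated fragments that match both copies was not stated. The coding sequences of Hba-a1 and Hba-a2 differ in 1 of 426 bases, and those of Hbb-b1 and Hbb-bt in 1 of 441. Of all windows of 100 bases of the Hba-a1 transcript, 56.5% occur unchanged in Hba-a2. The gene that the file calls Hbb-b1 is the one that RefSeq and GENCODE call Hbb-bs. The stretches below are from GENCODE M21 transcripts on GRCm38, read 5′ to 3′, and show the single differing coding base of each pair in capitals, to make plain how little separates the copies.
Hba-a1 (chr11:32284314-32284343, + strand, exon 3): ttcacccccgcggtgcatgcctctctggaC
Hba-a2 (chr11:32297131-32297160, + strand, exon 3): ttcacccccgcggtgcatgcctctctggaT
Hbb-b1 (chr7:103826692-103826721, - strand, exon 3): gccttccagaaggtggtggctggagtggcC
Hbb-bt (chr7:103812683-103812712, - strand, exon 3): gccttccagaaggtggtggctggagtggcT
Each pair is therefore described together, and the split within a pair is uncertain.

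Since the 4 hemoglobin genes shared an order of the libraries, their promoters were read as well, from RefSeq on GRCm38.p6, as 300 bases of which 250 lie before the start. CACCC is the letter pattern bound by Krüppel-like factors such as KLF1, and GATAA the one bound by GATA factors. All 4 promoters hold these and CCAAT as well. On either strand, CACCC was found in 57.7% of 31396 autosomal promoters of the same length and GATAA in 25.3%. On the strand of the gene alone, the letters CCAAT were found in 6602 promoters and those of TATAAA in 8.32%. TATAAA was present in 1 of the 4, Hbb-bt. The 30 bases around the CACCC nearest to the start, with the pattern in capitals, were as follows.
Hba-a1 (chr11:32283600-32283629, + strand): caagggcgtgtcCACCCtgcctggaggaca
Hba-a2 (chr11:32296417-32296446, + strand): caagggcgtgtcCACCCtgcctggaggaca
Hbb-bs (chr7:103828001-103828030, - strand): tccgtagagccaCACCCtggtaagggccaa
Hbb-bt (chr7:103813995-103814024, - strand): cctgcagggtaaCACCCtggcattggccaa
The pattern began 60 and 63 bases before the start of the alpha genes and 90 and 89 bases before that of the beta genes. A match of letters is a description and not a binding site.

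Several other erythroid genes had few fragments, and these were mixed in order. Ermap, an erythroid membrane protein, had 16 fragments in WT butyrate and 55 in LNCKO butyrate, against 19 and 26 in the controls, and Ank1, the ankyrin of red cells, had 69 and 136, against 63 and 109. These 2 genes had both LNCKO libraries above both WT libraries, as the hemoglobin genes did, whereas Klf1, Epor and Slc4a1 did not. Klf1, the erythroid Krüppel-like factor, had 8.99 fragments in WT butyrate and 0 in LNCKO butyrate. Epor, the erythropoietin receptor, had 32 and 24, and Slc4a1, the anion exchanger of red cells, had 0 in all 4 libraries. Of 18 erythroid genes listed, 5 had a mean of at least 1 FPKM, the fifth being the transferrin receptor gene Tfrc with a difference of 0.09. Hbb-bt was below 1 FPKM in both WT libraries and passed the filter by its LNCKO levels. The list median was 2.73 over these 5 genes but 0.0055 over all the listed ones. The summed erythroid level, hemoglobin genes included, was 215 fragments per 1000000 in WT butyrate and 322 in LNCKO butyrate. In WT control it was 230 and in LNCKO control 269. Hbb-b1 and Hba-a1 alone had 243 and 178 fragments in WT butyrate and 2361 and 1788 in LNCKO butyrate. The sum therefore does not describe the list as a whole. Erythroid cells were not identified otherwise, and in bulk libraries more or fewer cells of a type and more or less RNA per cell cannot be told apart.

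Arg1, which encodes the arginase of alternatively activated macrophages, was at 2.74 FPKM in WT butyrate and 11.6 in LNCKO butyrate, against 3.33 and 7.05 in the matching controls. The difference was 1.75 under butyrate and 0.89 without it, and both LNCKO libraries were above both WT libraries. By fragments, Arg1 was 4.24-fold higher in LNCKO butyrate (95% interval 4.04 to 4.45). Other genes of alternative activation did not follow. The list had 13 genes compared, 8 above 0 and 5 below, with a median of 0.12, which became -0.09 when genes were required to have a mean of at least 5 FPKM. Chil3, a chitinase-like protein, differed by 0.12, Mrc1, the mannose receptor, by -0.03, and Irf4, a transcription factor of this state, by 0.43. Ear2, an eosinophil-associated ribonuclease, was lower, at 8.46 FPKM in WT butyrate and 5.02 in LNCKO butyrate.

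Ifi208 and Cd5l differed about as much without butyrate as with it. Ifi208, a member of the interferon-inducible p200 family that binds DNA, was at 2.73 FPKM in WT butyrate and 10.5 in LNCKO butyrate, against 2.74 and 8.72 in the matching controls. Its difference was 1.63 under butyrate and 1.38 without. Of its transcript windows of 100 bases, 8.23% occur in another gene, chiefly Ifi206. Its relatives on the list did not share the difference. Of 23 interferon-inducible GTPase and p200 genes compared, Ifi208 was the 1 past 2-fold, and the median was 0.09. Ifi204, Ifi207 and Ifi209 differed by 0.10, -0.03 and 0.18. Cd5l, the secreted scavenger protein AIM of macrophages, was at 2.37 and 2.24 FPKM in the WT libraries and at 7.01 and 6.85 in the LNCKO libraries, control first. Its differences were 1.28 and 1.25.

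In Rag1, Hmox1, Gdf15 and Mcpt8, WT butyrate was the lowest of the 4 libraries. Rag1, which encodes the recombinase of developing lymphocytes, was at 2.15 FPKM in WT butyrate and 9.11 in LNCKO butyrate, against 9.27 and 10.1 in the matching controls. Its difference was 1.68 under butyrate and 0.11 without. Hmox1, the heme oxygenase that degrades heme, was at 21.5 and 46.2 FPKM, against 33.9 and 42.8 in the controls, a difference of 1.07 under butyrate and 0.33 without. Gdf15, a stress-induced member of the TGF-beta family, was at 1.32 and 3.95 FPKM, against 2.23 and 2.53 in the controls, a difference of 1.09. Mcpt8, a protease of basophils, was at 2.96 and 9.23 FPKM, against 5.85 and 10.1 in the controls, with differences of 1.37 and 0.70. In Rag1, Hmox1 and Mcpt8 the WT butyrate library was the one farthest from the others.

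Both lysozyme genes were lower in LNCKO butyrate, and here both butyrate libraries departed from their controls in opposite directions. Lyz2 encodes the lysozyme of macrophages and neutrophils, and its locus is often used to drive Cre recombinase in myeloid cells. Lyz2 was at 2871 FPKM in WT butyrate and 870 in LNCKO butyrate, against 1972 and 1609 in the matching controls. Lyz1, the copy beside it that is best known from Paneth cells of the intestine, was at 56.7 and 9.51 FPKM, against 19.4 and 16.2 in the controls. In both genes WT butyrate was the highest library and LNCKO butyrate the lowest. The differences under butyrate were -1.72 for Lyz2 and -2.46 for Lyz1, against -0.29 and -0.25 without butyrate. Lyz2 had 848207 fragments in WT butyrate and 284461 in LNCKO butyrate, which as shares of the totals was 3.30-fold less in LNCKO.

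The copies of lysozyme can be told apart over most of their length. Their coding sequences of 444 bases differ in 22 bases, and 2.06% of the windows of 100 bases of Lyz1 occur in Lyz2. The stretch of 30 bases with the most differences lies in exon 1 and is given from GENCODE M21 on GRCm38, 5′ to 3′, with the 7 differing bases in capitals.
Lyz1 (chr10:117292707-117292736, - strand): atggAtggctacCGtggTgtcaAGctggcT
Lyz2 (chr10:117282111-117282140, - strand): atggCtggctacTAtggAgtcaGCctggcC
Other lysosomal genes were much closer between the libraries. Of 32 lysosome and cathepsin genes compared, the lysozymes were the 2 past 2-fold, 16 were above 0 and 16 below, and the median was -0.01. Ctsc, the protease that activates granule enzymes of neutrophils, was at 73.0 FPKM in WT butyrate and 53.3 in LNCKO butyrate, whereas Lipa, the lysosomal acid lipase, was at 7.90 and 13.9.

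The neutrophil list lay below 0 under butyrate. All 22 genes of the list were compared, and 17 were below 0 and 5 above, where 63.9% of all genes were above 0. The median was -0.45, against 0.04 over all genes, and -0.18 without butyrate. Lyz1, Mmp8, Ly6g and Chil1, 4 genes, were at least 2-fold lower, which is 18.2% of the list against 0.257% of all genes. The list was chosen with earlier results of these data known, so these shares are a description and no test. WT butyrate was the highest library for 15 of the 22 genes, and for 21.2% of all genes.

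Mmp8, the neutrophil collagenase, was at 135 FPKM in WT butyrate and 60.6 in LNCKO butyrate, against 60.9 and 60.8 in the matching controls. Its difference was -1.15 under butyrate and 0.00 without. Ly6g, a surface marker of mouse neutrophils, was at 9.43 and 3.79 FPKM, against 4.04 and 2.99 in the controls, with differences of -1.12 and -0.33. Chil1, a chitinase-like protein of neutrophil granules, was at 10.5 and 4.42 FPKM, against 5.95 and 4.66 in the controls, with differences of -1.09 and -0.30. In these 3 genes WT butyrate stood alone above the other libraries.

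In further genes of the list WT butyrate was also the highest library, without the difference reaching 2-fold. S100a9, a subunit of calprotectin, was at 862 and 490 FPKM, against 615 and 493 in the controls, a difference of -0.81. Retnlg, a resistin-like protein of granulocytes, differed by -0.85, Lcn2, the iron-binding lipocalin, by -0.74 and Elane, neutrophil elastase, by -0.58. Asprv1, a protease that has been found in neutrophils and is not on the list, was at 104 and 30.7 FPKM, against 33.3 and 23.9 in the controls, with differences of -1.73 and -0.46. Lrg1, a glycoprotein of neutrophil granules, differed by -0.91 and also is not on the list. Some granule genes went the other way. Camp, the cathelicidin precursor, was at 36.7 FPKM in WT butyrate and 45.9 in LNCKO butyrate, and Fcnb, a ficolin of granulocyte precursors, at 2.70 and 3.78. Ngp and Prtn3 differed by 0.06 and 0.01. The summed level of the 22 genes was 12006 fragments per 1000000 in WT butyrate and 8239 in LNCKO butyrate, against 9486 in WT control and 8660 in LNCKO control. Whether the cultures differed in neutrophils was not tested.

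The B cell list lay above 0 under butyrate, with most of its genes short of 2-fold. Of 17 genes listed, 11 were compared, and all 11 were above 0, where 63.9% of all genes were, with a median of 0.42 under butyrate and 0.02 without. Of these, 1, Rag1, was past 2-fold. WT butyrate was the lowest library for 10 of the 11, and for 49.4% of all genes. Fcrla, an intracellular Fc receptor-like protein of B cells, was at 3.92 FPKM in WT butyrate and 7.32 in LNCKO butyrate, against 6.30 and 7.09 in the matching controls. Cd79b, part of the B cell receptor, was at 62.5 and 84.4 FPKM, against 82.2 and 82.8 in the controls. Vpreb3, of the pre-B cell receptor complex, was at 2.90 and 4.88, against 5.31 and 5.24 in the controls, and Ms4a1, which encodes CD20, at 18.4 and 20.5, against 19.5 and 19.4 in the controls. The differences were unequal, at 1.68 for Rag1, 0.76 for Fcrla and 0.15 for Ms4a1. Whether they followed the stage of B cell development was not tested. The summed level of the 17 genes was 1857 fragments per 1000000 in WT butyrate and 2367 in LNCKO butyrate, against 2287 and 2351 in the controls. The part of B cells in the cultures was not tested.

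**Figure D3:**
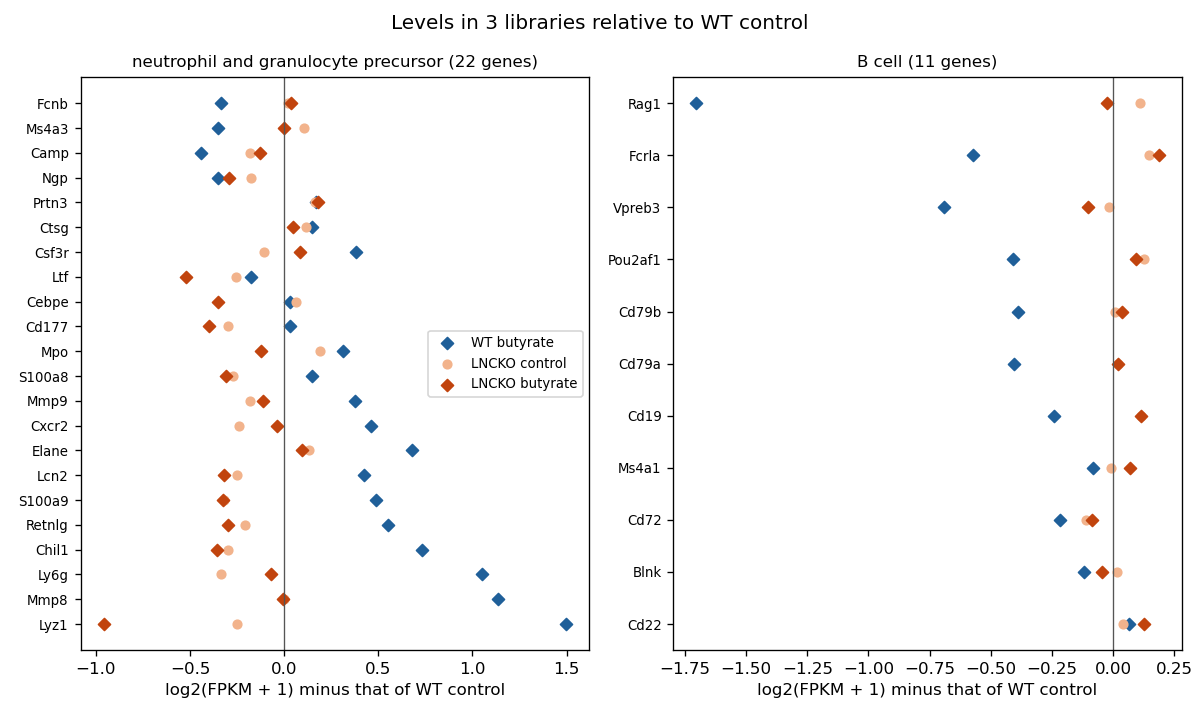
log2(FPKM + 1) in 3 libraries minus that in WT control for the 22 neutrophil genes (left) and the 11 B cell genes compared (right), 1 point per library. WT butyrate lies to the right of the other libraries for 15 of the 22 neutrophil genes and to the left for 10 of the 11 B cell genes. Over all genes, it was the highest library in 21.2% and the lowest in 49.4%.

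Markers of other cells differed as well. Basophil and mast cell genes had a median of 0.67 under butyrate and 0.46 without, over 5 genes compared, but a median of 0.12 under butyrate over all 12 listed. Kit, the receptor of stem cell factor, differed by -0.11 and was below the filter. Prss34, a basophil protease, had 3071 and 6610 fragments under butyrate, against 3794 and 5483 in the controls, a difference of 0.94 under butyrate and 0.60 without. Ms4a2, a chain of the IgE receptor, was at 1.14 and 2.41 FPKM, against 0.684 and 1.03 in the controls, whereas Hdc, which makes histamine, was lower in LNCKO butyrate by 0.21. All 3 stromal genes compared were below 0 under butyrate, with a median of -0.38. Without butyrate the median was -1.17 with 1 of 3 above 0, and without the filter on low values the median under butyrate was -0.075. Col1a1, a collagen chain, was at 4.04 FPKM in WT butyrate and 2.31 in LNCKO butyrate, against 5.14 and 1.20 in the matching controls, so its difference was smaller under butyrate (-0.61) than without it (-1.48). The summed stromal level was 478 fragments per 1000000 in WT butyrate and 335 in LNCKO butyrate, and 475 and 204 in the controls.

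Of the 12 macrophage identity genes, Lyz2 was the 1 past 2-fold under butyrate. They had a median of -0.13, 10 of them below 0, where 63.9% of all genes were above 0. Over all genes the median was 0.04, and the 5th and 95th percentiles were -0.23 and 0.28. Adgre1, which encodes F4/80, differed by -0.30, Csf1r by -0.27 and Spi1, which encodes PU.1, by -0.11, whereas Cd14, the coreceptor for lipopolysaccharide, was higher in LNCKO butyrate by 0.34. The summed level of the 12 genes, Lyz2 included, was 21269 and 10459 fragments per 1000000. The 12 monocyte genes had a median of -0.13. Ccr2, the receptor that brings monocytes out of the marrow, was at 132 FPKM in both butyrate libraries, with a difference of 0.00. Fn1, which encodes fibronectin, was the 1 past 2-fold among them, at 8.56 and 3.01 FPKM, against 3.22 and 2.63 in the controls, with differences of -1.25 and -0.22. Vcan and F13a1, a matrix proteoglycan and a clotting factor of monocytes, also had their highest value in WT butyrate and differed by -0.79 and -0.57.

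No compared gene of the resident macrophage list reached 2-fold under butyrate, where 0.454% of all genes did and 63.9% of all genes were above 0. Of 16 genes, 12 were compared, 9 of them below 0, and the median was -0.22 against -0.08 without butyrate, and -0.096 under butyrate without the filter on low values. C1qa, C1qb and C1qc, the chains of the first complement component, differed by -0.27, -0.39 and -0.30. Folr2, a folate receptor of resident macrophages, was at 3.64 FPKM in WT butyrate and 2.94 in LNCKO butyrate, against 1.83 and 2.84 in the matching controls. Cx3cr1, the fractalkine receptor, had a mean below 1 FPKM, at 0.482 and 0.647, against 0.826 and 0.652 in the controls, and Timd4 and Lyve1 had at most 64 fragments in a library. The wider complement list had 14 genes compared, 11 below 0, with a median of -0.24. C3, the central component, was at 37.6 and 22.7 FPKM, against 26.9 and 26.1 in the controls, a difference of -0.70.

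**Figure D4:**
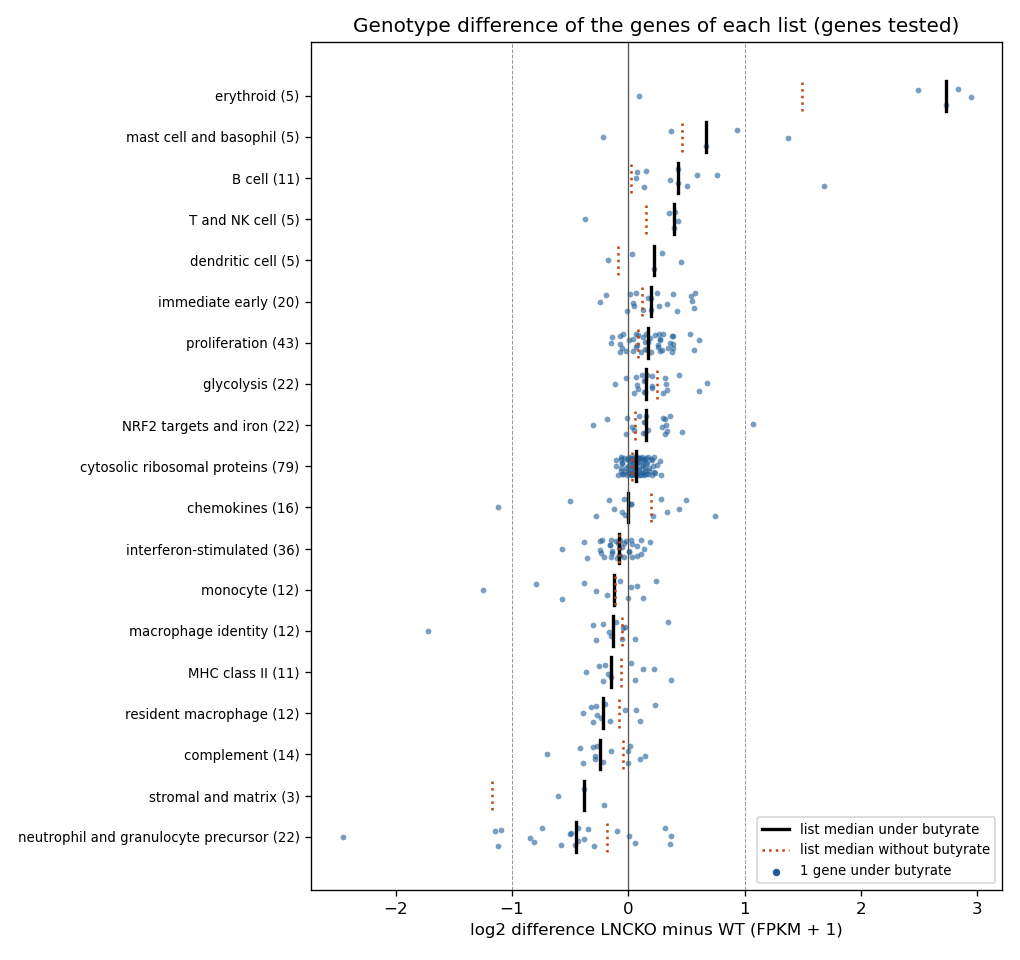
Log2 difference LNCKO minus WT (FPKM + 1) of the genes of 19 lists, 1 point per gene under butyrate, with the number of genes compared in brackets, the list median under butyrate as a black line and the median without butyrate as a dotted orange line. The neutrophil list has the lowest median under butyrate (-0.45) and the erythroid list the highest (2.73), which is that of 4 hemoglobin genes and Tfrc and becomes 0.0055 without the filter on low values.

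Genes of the axis that the study set out to follow differed unequally. Runx3 was at 5.73 FPKM in WT butyrate and 1.16 in LNCKO butyrate, against 2.85 and 0.849 in the matching controls, so that both LNCKO libraries were below both WT libraries. The difference was -1.64 under butyrate and -1.06 without. The values of this gene have a limit. Converted to fragments, they were 19461.99 in WT butyrate and 4352.78 in LNCKO butyrate, against 9206.62 and 2598 in the controls, and no gene length from 60 to 3000000 bases made them whole in all 4 libraries. Among the genes past 2-fold, Runx3 was the 1 with this property, and how the Runx3 values were made was not stated. Cbfb, the partner of Runx proteins, differed by 0.22, and Runx1, with a mean below 1 FPKM, had 7645 fragments in WT butyrate and 8879 in LNCKO butyrate.

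Nr4a1, a nuclear receptor of monocyte maturation, was at 0.511 FPKM in WT butyrate and 1.23 in LNCKO butyrate, against 0.840 and 1.62 in the matching controls. It was higher in both LNCKO libraries, with differences of 0.56 and 0.51. Nr4a1 was below 1 FPKM in both WT libraries and passed the filter by its LNCKO levels. Zfp36, which destabilizes cytokine mRNAs, was at 130 and 164 FPKM, against 156 and 170 in the controls, a difference of 0.33 under butyrate and 0.12 without. Mapk3, a MAP kinase, differed by -0.09, and Il1b, an inflammatory cytokine, by 0.07. Of 17 MAP kinase and phosphatase genes compared, 14 were above 0, where 63.9% of all genes were. Their median was 0.09, against 0.04 over all genes, and 0 reached 2-fold. Dusp5, a MAP kinase phosphatase, was at 2.41 FPKM in WT butyrate and 3.32 in LNCKO butyrate. Of 14 subunits and demethylases of the H3K4 methyltransferase complexes compared, 10 were above 0, against 63.9% of all genes, with a median of 0.03. Their differences ran from -0.05 to 0.14.

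Immediate early genes lay above 0 for the most part. Of 20 compared, 17 were above 0, against 63.9% of all genes, and the median was 0.19. Btg2, an antiproliferative gene, was at 48.1 FPKM in WT butyrate and 72.0 in LNCKO butyrate, against 68.6 and 81.3 in the matching controls. Egr1, a zinc finger factor, was at 28.7 and 42.5, against 33.3 and 51.1 in the controls, with differences of 0.55 and 0.60. Both genes were higher in both LNCKO libraries. Fos and Jun, the subunits of AP-1, differed by 0.01 and 0.05.

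The chemokines were split in direction. Of 16 compared, 8 were above 0 and 8 below, with a median of 0.00. Ccl5, which attracts T cells and monocytes, was at 203 FPKM in WT butyrate and 92.9 in LNCKO butyrate, against 81.2 and 85.4 in the matching controls, and was the 1 past 2-fold, with a difference of -1.12. Ccl12, a ligand of Ccr2, was at 63.5 and 44.6 FPKM, against 26.2 and 36.0 in the controls, with differences of -0.50 under butyrate and 0.45 without. In both genes WT butyrate was the highest library. Ccl3, a macrophage inflammatory protein, was the reverse, at 30.7 and 52.0 FPKM, against 42.9 and 49.0 in the controls. Interferon-stimulated genes had a median of -0.08 in both pairs, with 25 of 36 below 0 under butyrate and 32 of 36 without, and 0 of them past 2-fold. Over all genes, 63.9% were above 0 under butyrate and 56.8% without.

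Genes of metabolism and growth differed little. Of 22 glycolysis genes compared, 20 were above 0, where 63.9% of all genes were, with a median of 0.15 under butyrate and 0.24 without, and both LNCKO libraries were above both WT libraries in 17, where this held for 1635 of all 6612 genes (24.7%). Bnip3 and Egln3, which respond to low oxygen, differed by 0.67 and 0.61 under butyrate and by 0.63 and 0.58 without. Of 22 NRF2 and iron genes compared, 18 were above 0, against 63.9% of all genes. Their median was 0.15, and Hmox1 was the 1 past 2-fold. Proliferation genes had a median of 0.17, with 35 of 43 above 0, against 63.9% of all genes. Cdc20, an activator of the anaphase-promoting complex, was at 7.02 and 10.8 FPKM, against 10.7 and 11.4 in the controls. WT butyrate was the lowest library in 32 of the 43 proliferation genes, and in 49.4% of all genes. Of 16 selenoprotein genes compared, Selenom, which encodes a protein of the endoplasmic reticulum, was the 1 past 2-fold, at 14.8 FPKM in WT butyrate and 5.11 in LNCKO butyrate, against 3.89 and 5.26 in the matching controls. Butyrate uptake and sensing genes included Hcar2, a receptor of butyrate and niacin, which differed by 0.46, and Ffar2, a receptor of short-chain fatty acids, which differed by -0.29. The 7 histone deacetylase genes compared lay between 0.00 and 0.23.

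The genes around the Ly6 cluster were read by position, since lncLy6c is named for it. Within 1 Mb of the start of Ly6c2 on chromosome 15, 17 genes were compared, of which 8 were above 0 and 9 below, with a median of -0.01. Of these, 1, Ly6g, was past 2-fold. Ly6c2, the main Ly6C gene of monocytes, lies at chr15:75108158-75111970 on GRCm38 and was at 916 FPKM in WT butyrate and 807 in LNCKO butyrate, against 728 and 752 in the matching controls. Its difference was -0.18 under butyrate and 0.05 without. Ly6c1 beside it differed by -0.25 and Ly6a, which encodes Sca-1, by -0.34, whereas Ly6d and Lynx1 were higher in LNCKO butyrate by 0.35 and 0.54. Ly6e, the most widely expressed of the family, was at 751 and 746 FPKM in the butyrate libraries.

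Some of the genes past 2-fold overlap another listed gene on the same strand, and the fragments of such neighbours were therefore also summed. Of the 30 genes, 5 (16.7%) overlap another listed gene in their exons, against 295 of the 6612 genes (4.46%). Raver1, a splicing regulator, had 5481 fragments in WT butyrate and 33 in LNCKO butyrate, against 5063 and 4784 in the matching controls. ENSMUSG00000111497, a gene model that runs through Raver1 and shares 59.6% of its 100-base windows with it, had 1812 and 7980, against 2182 and 2154 in the controls. The sum over the locus was 125 fragments per 1000000 in WT butyrate and 124 in LNCKO butyrate, a log2 ratio of -0.01. The 2 genes differed in opposite directions, and the locus as a whole did not reach 2-fold.

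ENSMUSG00000110104, which overlaps Ifitm2 and Ifitm5, had 128 and 224 fragments in the WT libraries and 6802 and 9073 in the LNCKO libraries, control first. This gene was below 1 FPKM in both WT libraries and passed the filter by its LNCKO levels. Ifitm2, an interferon-induced membrane protein that limits virus entry, had 27149 and 29662 in WT and 16401 and 21071 in LNCKO. Summed over the locus, the log2 ratio of LNCKO to WT was -0.13 under butyrate and -0.15 without. Here the split between neighbours differed by genotype with and without butyrate.

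Evi2b, a membrane protein of myeloid cells, had 5815 fragments in WT butyrate and 1028 in LNCKO butyrate, against 989 and 1047 in the matching controls, while the overlapping Evi2 had 11441 and 19581, against 18966 and 17340 in the controls. With Evi2a added, the locus ratio was 0.13 under butyrate. Rag1 overlaps Iftap, and there the sum still differed, by a log2 ratio of 1.70, at 34.0 fragments per 1000000 in WT butyrate and 110 in LNCKO butyrate. Counting each overlapping group as 1 locus left 10 loci higher and 15 lower under butyrate, of 6477.

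**Figure D5:**
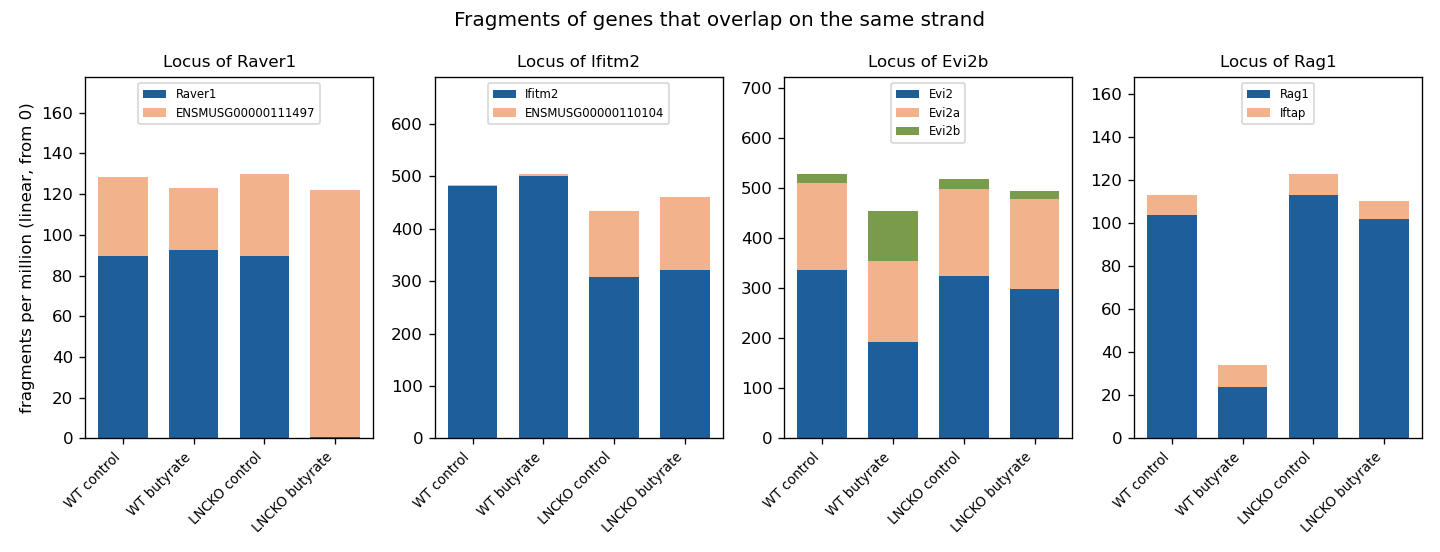
Fragments per 1000000 in each library for genes that overlap on the same strand, stacked, with bars from 0. At the loci of Raver1, Ifitm2 and Evi2b the shares of the genes shift between libraries while the bar heights stay similar, and at the locus of Rag1 the WT butyrate bar is low (34.0 with both genes).

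H2ac18, a replication-dependent histone H2A gene, had a difference of -3.12 and rests on few fragments. This was the largest negative difference on the scale of FPKM + 1, but in fragments per 1000000 Raver1 (-5.96), Klk1b11 (-2.63), Evi2b (-2.57) and Lyz1 (-2.55) exceeded it (-2.46), and per exon length Raver1 did (-5.91 against -4.73). It had 266 fragments in WT butyrate and 0 in LNCKO butyrate, against 0 and 35 in the matching controls. H2ac18 passed the filter by its WT butyrate level of 7.67 FPKM, with at most 1.12 in the other libraries. Against a floor of 3 fragments per library, it was at least 98.1-fold lower in LNCKO butyrate than in WT butyrate, and at least 12.3-fold higher for LNCKO among the controls. Of its 100-base windows, 88.3% occur in the gene model Gm20634, which is not used here. Of 19 histone genes compared, H2ac18 was the 1 past 2-fold, and the median was 0.24. H3c14, a histone H3 gene, was at 0.750 and 1.79 FPKM, against 1.74 and 0.113 in the controls, so that neither histone gene had its control and butyrate pairs in the same direction.

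The other lower genes were Klk1b11, AF067061, Tmem119 and Gpr162. Klk1b11, a kallikrein protease, was at 4.57 FPKM in WT butyrate and 0.530 in LNCKO butyrate, against 0.922 and 0.548 in the matching controls. It passed the filter by its WT butyrate level alone. Tmem119, known as a marker of microglia, was at 4.30 and 1.54 FPKM, against 1.22 and 1.76 in the controls. Gpr162, an orphan receptor, was at 8.19 and 3.49 FPKM, against 4.92 and 3.51 in the controls, and AF067061 at 3.57 and 1.08, against 1.07 and 1.05 in the controls. In each of them WT butyrate was the highest library. Their differences under butyrate ran from -1.86 for Klk1b11 to -1.03 for Gpr162.

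Below the 2-fold mark on the scale of FPKM + 1, the nearest genes on the higher side were Marco, Prss34, Rbm42 and Pafah1b3. For Marco and Rbm42 the plain ratio of the FPKM values below is past 2-fold. Marco, a scavenger receptor for bacteria, was at 0.461 FPKM in WT butyrate and 1.81 in LNCKO butyrate, against 2.02 and 2.47 in the matching controls, a difference of 0.95. Lpl, the lipoprotein lipase, was at 7.71 and 14.4 FPKM, against 13.1 and 19.9 in the controls, with differences of 0.82 and 0.56. Sox4, a transcription factor of progenitors, differed by 0.83 and 0.21. Myc, which drives growth, was on the lower side, at 15.6 and 10.4 FPKM, against 8.28 and 11.2 in the controls, with differences of -0.54 under butyrate and 0.39 without. In Rbm42, an RNA-binding protein, the direction also differed, at 3.01 and 6.61 FPKM, against 6.08 and 3.70 in the controls, so that neither Myc nor Rbm42 had the same direction in both pairs.

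In the other lists, the genes past 2-fold were Gdf15 among the cytokines, Cd5l among the scavenger receptors, Mmp8 among the matrix metalloproteinases and Ly6g in the Ly6 family, and each is described above. The 8 genes of the Ly6 family compared had a median of -0.18, with 6 below 0. T and NK cell genes had a median of 0.39 over 5 genes compared (0.13 without the filter) and dendritic cell genes 0.22 over 5. NF-kB genes had a median of 0.10, with 14 of 16 above 0, where 63.9% of all genes were. MHC class II genes had a median of -0.15 and MHC class I genes -0.04. Toll-like receptor genes (0.03), inflammasome genes (0.04), Fc receptor genes (0.05) and C-type lectin genes (-0.03) had medians within 0.1 of 0. The same held for lipid efflux and storage genes (0.08), sterol and fatty acid synthesis genes (0.06), integrated stress response genes (0.07), myeloid transcription factor genes (0.02) and the 2 megakaryocyte genes compared (0.06). Housekeeping complexes had medians of 0.06 for 79 ribosomal protein genes, 0.08 for 75 oxidative phosphorylation genes and 0.05 for 35 proteasome genes.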

How the data were processed

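RNA sequencing libraries of 4 groups (1 each) were analysed. What the authors deposited is FPKM, per gene and library, without counts. The submitters' processing notes name STAR 2.5.0c, Picard 1.126, bedtools 2.17.0, HTSeq 0.6.0, DESeq2 3.0 and GRCm38 (mm10), with no order. The methods state TRIzol and an MGISEQ-2000 with 100-base paired reads, whereas the design text of the series and the labels state RNeasy, TruSeq and Illumina protocols.

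Fragments were recovered from FPKM, gene span (GENCODE M21) and the library total that made them whole: 16076 of 16342 matched genes (98.4%) were whole in all 4 libraries within 0.01. RefSeq placed 20 further genes and 13 stayed unplaced. Because the authors divided by the whole span, the filter on FPKM leaves out long genes: 3488 of the 9190 autosomal genes below a mean FPKM of 1 had at least 1 fragment per exon kilobase and 1000000 fragments. Differences were log2 ratios of FPKM + 1. The genes compared and the 47 lists were chosen with earlier results of these data known, and no list or gene was tested. Named genes were taken from list members and genes the study names. They also came, where the mean reached 5 FPKM, from the 15 largest differences either way. The 8 either way that departed most from the control pair were a further source. Of these, Srm (-0.80), Prg2 (-0.77), Ifitm6 (-0.75), Ctla2b (0.62) and Fam89b (0.26) were not described above. Other genes past 2-fold, Rbm42, Nnt, Wdfy1 and the Y-linked genes were named after their values were seen. Intervals are exact 95% intervals for counting error. On simulated data with known answers for LNCKO against WT under butyrate, 100 of 100 genes raised 4-fold, 100 of 100 lowered 4-fold and 0 of 6378 unchanged genes were past 2-fold, and 4 of 4 totals were recovered. The simulated libraries shared 1 mean per gene and differed by counting error (Poisson) alone. They held no variation between cultures or animals, so the 0 of 6378 is no rate of false calls for the real libraries. Python 3.11.15, numpy 2.4.6, pandas 2.3.3, scipy 1.17.1, matplotlib 3.10.9 and biopython 1.88 were used. The rest of the assays in the study is not used here.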

Additional observations from a re-analysis of the deposited data

Results flagged for a closer look

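Differences of opposite sign in the pair with and the pair without butyrate of at least 0.5 on the log2 scale in each were found for 4 of the 6612 genes. H2ac18 differed by -3.12 under butyrate and by 1.08 without. Tomm6, a subunit of the import channel of mitochondria, differed by 0.87 and by -0.71, and its exons overlap another listed gene on the same strand. H3c14 differed by 0.67 and by -1.30, and Rbm42 by 0.92 and by -0.59. With 1 library per group, these reversals were not tested.

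Genes of the Y chromosome lie outside the comparison and had fragments in LNCKO butyrate far above those in WT butyrate. Ddx3y had 7764 fragments in LNCKO butyrate, Eif2s3y 7117, Kdm5d 2882 and Uty 2419, against 49, 23, 33 and 27 in WT butyrate. The part of sex in the genotype differences was not tested.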

How the results depend on the processing

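No replicate could be left out, and no paired analysis was possible because each group has 1 library. The counts of genes past 2-fold under butyrate (13 higher, 17 lower) and in both pairs (7 and 1) moved mainly with the unit and the threshold. A pseudocount of 0.1 gave 26 higher, 29 lower and 6 lower in both pairs. A mean of at least 5 FPKM left 9 lower and 0 lower in both pairs, with r = 0.50. Fragments per 1000000 gave 79 higher, 88 lower, 15 lower in both pairs and r = 0.23 over 11378 genes. Fragments per exon length gave 88 higher, 91 lower, 12 and 16 in both pairs and r = 0.20 over 11443. A 1.5-fold threshold gave 49 higher, 50 lower, 13 and 9 in both pairs, and leaving out hemoglobin and overlapping genes gave r = 0.26. These last settings, and the one that sums overlapping genes (10 higher, 15 lower), were chosen after seeing the data. Scaling by median ratios left the counts at 13 and 17. The cause of these moves was not tested. The settings on fragments compared more genes, whereas the pseudocount of 0.1 was applied to the same 6612 genes as the main setting. Of 317 values of list medians under alternatives, 300 moved by less than 0.2, and 36 of 46 lists kept the sign of their median in every setting. Genes with few fragments limit the depth: H2ac18 rests on 266.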

Other observations

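Nnt, which encodes a mitochondrial proton-translocating transhydrogenase and is known to carry a deletion in the C57BL/6J substrain, had 2509 fragments in WT butyrate and 1242 in LNCKO butyrate, against 2144 and 1200 in the matching controls, for the gene model ENSMUSG00000025453. A second model of the same name, ENSMUSG00000116207, was the other way under butyrate, with 78 and 915 fragments, against 840 and 659 in the controls. The mean FPKM of both models was below 1, so they were not among the genes compared. Wdfy1, an endosomal protein, had 7188 and 3510 fragments, against 6948 and 2676 in the controls, with differences of -0.62 under butyrate and -0.67 without. Wdfy1 and the first Nnt model were lower in both LNCKO libraries. The WT mice are described as C57BL/6 and the LNCKO mice as C57BL/6J, and the part of the substrain in these values was not tested.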
